A study of Mus musculus with 6 samples.

Results

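The transcripts of 9 genes for secreted products of salivary and related glands (Dcpp1, Dcpp2, Dcpp3, Bpifa2, Smgc, Prol1, Klk1, Amy1 and Cela1) were followed across 6 lymph node arrays. Members were all probes whose platform gene symbol is one of these 9 names, which gave 12 of 25697 probes and 9 of 16593 named genes. The genes were selected on their intensities on these arrays and the difference between the groups, so their intensities, detection and group differences are descriptions and carry no test. The gene lists set beside them were also chosen with earlier results of these data known, so their calls and p-values are read as descriptions. Total RNA came from the lymph nodes of mice with a knockout of both Rag2 and pfp, the perforin gene (Rag2/pfp KO), and of wild-type mice, with 3 arrays of each, on the Illumina Mouse Ref-8 v2 platform. RAG2 is needed to assemble antigen receptor genes, and perforin makes the pores by which cytotoxic lymphocytes kill. The labels give no treatment, age, sex or strain, do not name the node, and do not say whether the replicates were separate animals, so a p-value here reflects the scatter of these arrays alone, and that scatter may be technical. Between 51.3% and 56.3% of the probes were detected per array, that is, had a detection p-value under 0.05 against the negative control beads. The labelled tissue was borne out by its markers in part: all 7 stromal genes of the node on the array were detected on 5 arrays and 6 on wild-type replicate 1. All 8 T cell genes were detected on each wild-type array and 6 to 8 on the knockout arrays, and 6 of 7 B cell genes on each wild-type array against 2 on each knockout array. No array had the Rag2 probe above background (detection p-values from 0.332 to 0.982) and the brighter Prf1 probe read 11.02, 10.68 and 10.92 on the log2 scale in the knockout and 11.91, 10.38 and 10.75 in wild type, so neither checks the genotype.

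Saliva in mice is made by paired submandibular, sublingual and parotid glands, which lie beside the lymph nodes of the neck. In each, acinar or demilune cells make the bulk of the secreted protein and mucin, and ducts modify the fluid. The submandibular gland of rodents also has granular convoluted tubules, duct segments that are larger in males and that store kallikreins, epidermal growth factor and nerve growth factor. The members come from different ones of these compartments. Dcpp1, Dcpp2 and Dcpp3 encode demilune cell and parotid proteins, Bpifa2 the parotid secretory protein, and Smgc a submandibular protein of newborn terminal tubule cells that the adult sublingual gland also makes. Prol1, also named Muc10 in RefSeq, encodes a submandibular mucin, Klk1 is tissue kallikrein, Amy1 is salivary amylase, and Cela1 is an elastase of acinar cells of the pancreas.

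The start regions of 6 members are printed here because the first 5 of them were bright on the same 4 arrays, while Prol1 was not. Each window runs from 250 bases before to 50 after the annotated start, read 5′ to 3′ on the gene's strand from RefSeq, build GRCm38.p6, and capitals mark TATAA with its first base 40 to 20 bases before the start. The windows are chr17:23880626-23880925 (+) for Dcpp1, chr17:23898472-23898771 (+) for Dcpp2, chr17:23917208-23917507 (+) for Dcpp3, chr2:154008026-154008325 (+) for Bpifa2, chr15:91838078-91838377 (+) for Smgc and chr5:88317062-88317361 (+) for Prol1.
Dcpp1: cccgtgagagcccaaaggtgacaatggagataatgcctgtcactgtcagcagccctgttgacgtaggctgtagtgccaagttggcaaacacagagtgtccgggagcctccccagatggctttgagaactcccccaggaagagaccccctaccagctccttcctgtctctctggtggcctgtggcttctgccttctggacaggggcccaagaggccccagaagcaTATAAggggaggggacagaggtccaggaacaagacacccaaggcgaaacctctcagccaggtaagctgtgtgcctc
Dcpp2: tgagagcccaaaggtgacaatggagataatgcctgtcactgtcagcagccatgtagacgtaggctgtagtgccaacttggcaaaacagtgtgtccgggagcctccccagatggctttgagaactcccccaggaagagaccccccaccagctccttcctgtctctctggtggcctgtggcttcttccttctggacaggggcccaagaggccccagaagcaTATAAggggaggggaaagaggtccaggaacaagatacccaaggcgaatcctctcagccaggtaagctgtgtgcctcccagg
Dcpp3: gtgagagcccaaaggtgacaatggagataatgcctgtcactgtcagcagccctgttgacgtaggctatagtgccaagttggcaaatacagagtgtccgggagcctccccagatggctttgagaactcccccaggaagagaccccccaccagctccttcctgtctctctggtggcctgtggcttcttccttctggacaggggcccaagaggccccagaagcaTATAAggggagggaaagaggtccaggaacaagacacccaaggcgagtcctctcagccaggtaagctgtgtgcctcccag
Bpifa2: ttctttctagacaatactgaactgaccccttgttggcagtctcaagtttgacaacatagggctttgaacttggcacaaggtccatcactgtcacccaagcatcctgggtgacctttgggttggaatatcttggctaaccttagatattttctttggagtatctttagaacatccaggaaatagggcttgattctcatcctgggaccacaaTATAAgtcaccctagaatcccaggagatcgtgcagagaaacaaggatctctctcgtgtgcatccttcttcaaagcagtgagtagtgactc
Smgc: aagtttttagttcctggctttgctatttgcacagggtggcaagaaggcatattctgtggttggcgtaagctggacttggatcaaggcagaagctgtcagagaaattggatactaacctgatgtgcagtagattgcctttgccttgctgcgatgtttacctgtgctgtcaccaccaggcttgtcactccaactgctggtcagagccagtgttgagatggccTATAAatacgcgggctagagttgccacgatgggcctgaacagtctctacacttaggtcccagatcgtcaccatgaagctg
Prol1: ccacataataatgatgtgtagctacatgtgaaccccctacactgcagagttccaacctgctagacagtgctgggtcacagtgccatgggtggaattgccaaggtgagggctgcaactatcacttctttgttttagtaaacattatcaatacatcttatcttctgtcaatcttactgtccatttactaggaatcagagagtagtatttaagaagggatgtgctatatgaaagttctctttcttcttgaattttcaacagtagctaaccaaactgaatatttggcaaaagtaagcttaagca
The 3 Dcpp windows were near copies of each other: 96.6% of 296 aligned columns were identical between Dcpp1 and Dcpp2, 97.3% of 297 between Dcpp1 and Dcpp3, and 97% of 300 between Dcpp2 and Dcpp3. TATAA in that place was found in 6 of the 9 members, Cela1 being the sixth, and in 3.52% of the 32851 windows in the RefSeq table. The 6 include the 3 near-copy Dcpp windows, which are not independent matches. Members are counted here by gene and the RefSeq share by window, so the 2 figures are not a like comparison. On either strand and anywhere in the window, TATAA occurs in 24.9% of them. These letters are not in the windows of Prol1 or Klk1, and neither of the 2 Amy1 windows has them in that place. A match is a description of the sequence and does not show a site in use. The Dcpp genes are such close copies that a probe may read more than 1 of them, and the probe sequences were not used here, so their 3 probes are not counted as independent measurements.

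Wild-type replicate 2 stood apart from the other wild-type arrays for most of the members, and with it the spread within wild type. Of the 9 genes, 8, 9 and 9 were detected on knockout replicates 1, 2 and 3 and 9 on wild-type replicate 2, against 3 on wild-type replicate 1 and 3 on wild-type replicate 3. The 3 genes detected on every array were Klk1, Amy1 and Cela1. All 9 passed the filter used below for testing (detected on at least 3 of 6 arrays) with at least 1 probe, and 11 of the 12 probes did. The difference of group means, knockout minus wild type, ran from 1.00 for Amy1 to 7.20 for Dcpp2 on the normalized log2 scale, with a median over the 9 genes of 5.72, and the median over all 14378 tested probes was 0.0016. Every knockout array was above every wild-type array for 1 of the 9 genes, Cela1, beside 21.0% of all tested probes, and below for 0 of the 9, beside 27.3%. Over all tested probes 28.6% were called by limma in either direction. The RNA came from whole tissue pieces, so fewer cells of a type and less RNA per cell cannot be told apart in any of these values.

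**Figure D1:**
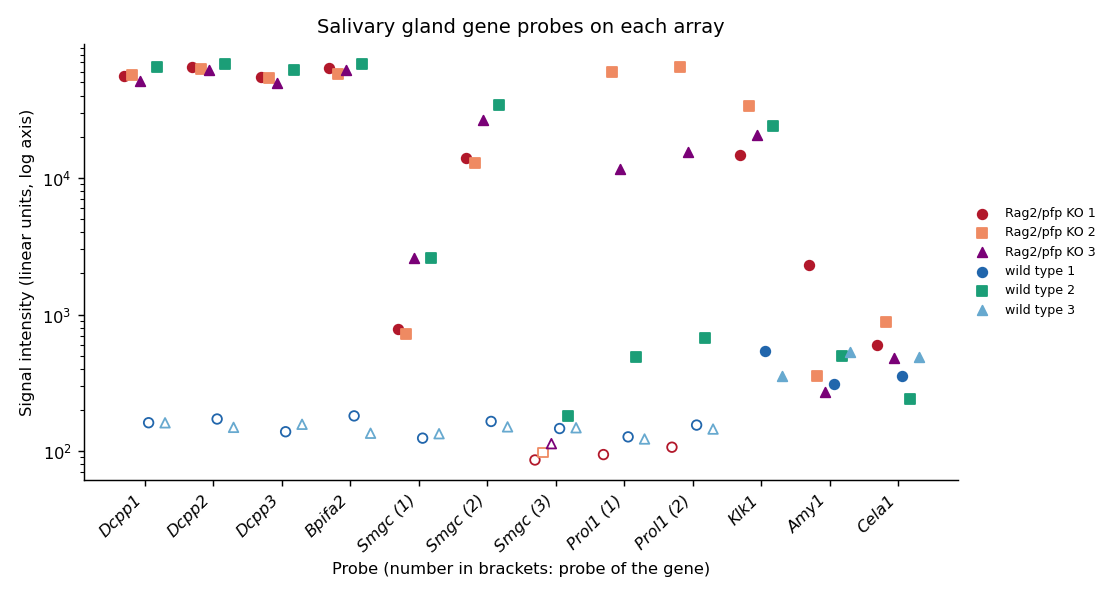
Signal intensity (linear units, log axis) of the 12 probes of the 9 genes on each of the 6 arrays, 1 point per array, filled where the detection p-value is under 0.05 and open where it is not. The Dcpp and Bpifa2 probes read from 49823 to 68467 on the 3 knockout arrays and wild-type replicate 2 and from 135 to 181 on the other wild-type arrays, while the Prol1 probes separate the knockout arrays from each other.

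The demilune and parotid protein genes were at the top of the scale on 4 arrays and below background on 2. The Dcpp1 probe read an intensity of 55593, 56788 and 51458 on knockout replicates 1, 2 and 3, and 162, 65371 and 161 on wild-type replicates 1, 2 and 3. Wild-type replicate 2 was thus bright with the knockout arrays, and the other wild-type arrays were not above background (detection p-values of 0.208 and 0.0915). On the normalized scale, wild-type replicate 2 was at least 1249-fold above wild-type replicate 1 and at least 1350-fold above wild-type replicate 3, taking the lowest signal detected on the dim array as its level.

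The Dcpp2 probe read 64493, 63060 and 61771 in the knockout and 172, 67924 and 149 in wild type. For Dcpp3 the intensities were 54582, 53937 and 49823 in the knockout and 139, 62083 and 157 in wild type. Neither gene was above background on wild-type replicate 1 or 3, with detection p-values from 0.0990 to 0.744. Bpifa2, a lipid-binding protein of saliva from another family, followed the same arrays, with 63649, 57391 and 61282 in the knockout and 181, 68467 and 135 in wild type. Its detection p-values were 0.0602 on wild-type replicate 1 and 0.518 on wild-type replicate 3.

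Among the 4 bright arrays these genes could hardly be ranked. Their intensities were 77.6% to 99.0% of that of the brightest probe of the same array, and the normalized values of the knockout arrays differed from wild-type replicate 2 by -0.19 to 0.02 on the log2 scale. The deposited files do not mark saturated probes, so a difference between these arrays in Dcpp or Bpifa2 transcript would not be seen if the scanner or the beads had reached their limit.

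Smgc lay lower on the scale and did show a difference among the 4 arrays. Its brightest probe read 14088, 12835 and 26742 on knockout replicates 1 to 3 and 165, 34053 and 151 on wild-type replicates 1 to 3. Knockout replicate 3 and wild-type replicate 2 were the high pair, and knockout replicates 1 and 2 were each 0.445 and 0.440 of wild-type replicate 2 on the normalized scale. A dimmer Smgc probe gave the same order of pairs, with 789, 715 and 2582 in the knockout and 125, 2582 and 134 in wild type. The third Smgc probe was above background on wild-type replicate 2 alone, at 182 with a detection p-value of 0.0238. RefSeq lists Muc19, a mucin gene of the same locus, among the other names of Smgc, and which transcripts each probe matches was not tested.

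Klk1 was detected on all 6 arrays. Tissue kallikrein is a serine protease of gland ducts that releases kinins. Its intensity was 14815, 33544 and 20655 on knockout replicates 1 to 3, and 537, 23897 and 357 on wild-type replicates 1 to 3. Wild-type replicate 2 fell among the knockout arrays, equal to knockout replicate 3 after quantile normalization (both 14.47 on the log2 scale), with knockout replicate 2 above it (15.03) and knockout replicate 1 below it (13.85). The normalized level of wild-type replicate 2 was 60.6-fold that of wild-type replicate 1 and 107-fold that of wild-type replicate 3.

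Prol1 separated the knockout arrays from each other. Its brighter probe read 107, 65332 and 15517 on knockout replicates 1, 2 and 3, and 155, 675 and 145 on wild-type replicates 1, 2 and 3. It was among the brightest probes on knockout replicate 2, at 97.4% of the brightest probe there, and not above background on knockout replicate 1 (detection p-value 0.159). On the normalized scale knockout replicate 2 was at least 1249-fold above knockout replicate 1 and 130-fold above wild-type replicate 2, which would understate the difference if the probe was saturated on knockout replicate 2. Knockout replicate 3 was 31.6-fold above wild-type replicate 2. The dimmer Prol1 probe gave the same order, with 94.5, 59139 and 11723 in the knockout and 127, 490 and 123 in wild type.

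The arrays were thus ordered differently by Prol1 and by the demilune genes. Knockout replicate 1, which read Dcpp2 at 97.3% of its brightest probe, had no Prol1 signal above background, and wild-type replicate 2, on which the Dcpp and Bpifa2 probes were also near the top of the scale, had a Prol1 level far under that of knockout replicates 2 and 3. The group means of the brighter Prol1 probe, 11.73 ± 5.76 (SD, n = 3) for knockout arrays and 6.33 ± 2.32 (SD, n = 3) for wild-type arrays in log2 units, therefore describe no single array.

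Amy1 and Cela1 followed neither order. Amy1, the amylase of saliva, which is also made in liver, read 2325, 354 and 273 on knockout replicates 1 to 3 and 312, 495 and 532 on wild-type replicates 1 to 3. Knockout replicate 1 was the high array, 6.37-fold above knockout replicate 2, 10.9-fold above knockout replicate 3 and 6.52-fold above wild-type replicate 2, whereas the other 5 arrays overlapped between the groups. The array has no second Amy1 probe, and pancreatic amylase genes are close copies that it may also read. The brighter probe of the pancreatic amylase gene Amy2a5 read 179, 454 and 104 in the knockout and 163, 158 and 140 in wild type. It was above background on knockout replicates 1 and 2 only, and the other Amy2a5 probe on no array. Whether the Amy1 probe reads Amy2a5 was not tested.

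Cela1 was dim throughout, with 602, 890 and 481 in the knockout and 353, 239 and 487 in wild type. Wild-type replicate 2, bright for the Dcpp genes, was the lowest array for Cela1, and knockout replicate 2 was the highest, 9.29-fold above wild-type replicate 2 and 1.88-fold above knockout replicate 1 on the normalized scale. In raw intensity knockout replicate 3 and wild-type replicate 3 were nearly equal. The knockout arrays had a lower background (lowest intensities of 62.3 to 62.5, against 90.5 to 105 in wild type), and after background correction and normalization their log2 values were 8.73 and 8.34. On that scale Cela1 is the member whose groups did not overlap.

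**Figure D2:**
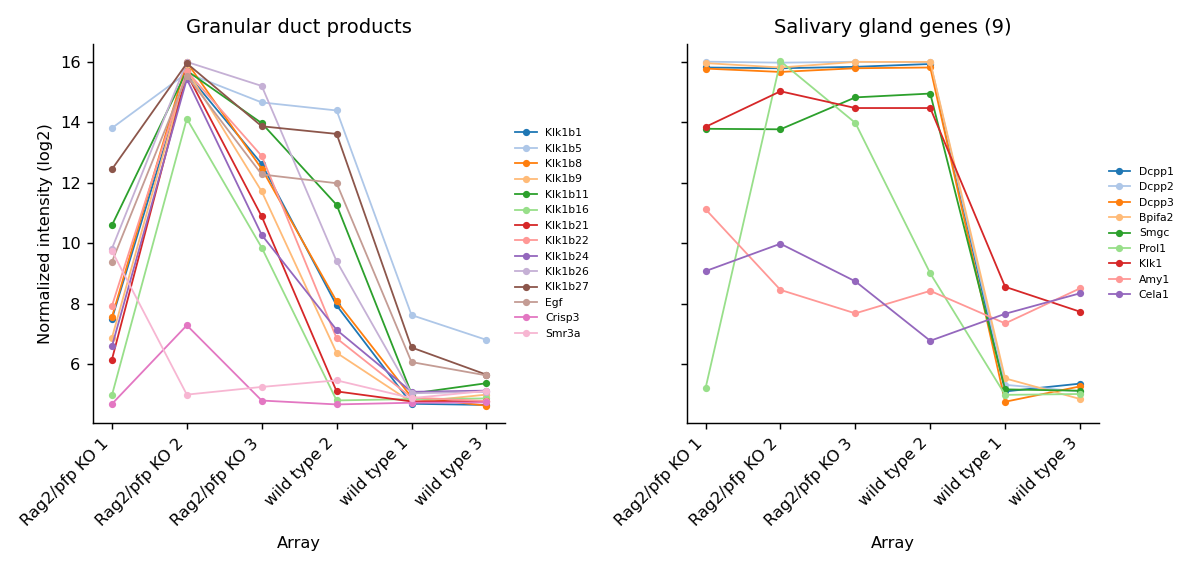
Normalized intensity (log2) on each array for granular duct products detected on at least 1 array (left, 14 genes) and for the 9 salivary gland genes (right, brightest tested probe of each), with wild-type replicate 2 placed beside the knockout arrays. Of the 14 granular duct products 13 peak on knockout replicate 2, as Prol1 does, while the Dcpp genes and Bpifa2 stay level across 4 arrays.

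Products of the granular convoluted tubules were set beside the members from a list of 20 genes, of which 15 were on the array and 14 were detected on at least 1 array. Their order was that of Prol1 in 13 of the 14: knockout replicate 2 was highest, knockout replicate 3 next, and both were above knockout replicate 1 and wild-type replicate 2 (1 of the 13, Crisp3, was above background on knockout replicate 2 alone, so the order of its other arrays has no meaning). The median log2 level of the 15 genes was 7.55, 15.63 and 12.27 on knockout replicates 1 to 3, and 4.89, 7.13 and 4.98 on wild-type replicates 1 to 3. By this median knockout replicate 1 and wild-type replicate 2 were close to each other and far below knockout replicate 2. Single genes departed from it, among them Egf, Smr3a, Klk1b5 and Klk1b27, whose values are given below.

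Egf, the epidermal growth factor gene, read 9.38, 15.54 and 12.27 on the log2 scale on knockout replicates 1 to 3, and 6.06, 11.98 and 5.62 on wild-type replicates 1 to 3. Klk1b26, a kallikrein of the same family as Klk1, read 9.82, 16.002 and 15.21 in the knockout and 5.03, 9.40 and 5.07 in wild type. The kallikrein Klk1b16 was detected on knockout replicates 2 and 3 only, at 14.12 and 9.85. The exception to the order was Smr3a, which was detected on knockout replicate 1 alone, at 9.74. Brighter probes of Klk1b5 and Klk1b27 lay nearer to the Klk1 pattern, with 14.39 and 13.62 on wild-type replicate 2 and 13.81 and 12.45 on knockout replicate 1. All 13 Klk1b genes in the RefSeq table lie on chromosome 7 with Klk1 and are close copies, so a probe may read several of them.

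Sex-linked transcripts were alike in kind on all arrays: the Y-linked genes Eif2s3y, Kdm5d and Uty were detected on all 6, and neither Xist probe on any. Eif2s3y, which encodes a translation initiation factor subunit, was lower in the knockout by limma (log2 difference -1.46, SE 0.32, adjusted p = 0.0199), and so was the histone demethylase gene Kdm5d (-1.97, SE 0.21, adjusted p = 0.00317). Uty, the third, was tested by limma and not called (-0.19, adjusted p = 0.352).

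In the test of knockout against wild type by limma, 2 of the 11 tubule genes that passed the filter were higher and 0 lower at an adjusted p under 0.05. At that threshold 10.1% of all tested probes were called higher. The 2 genes were Klk1b26 (log2 difference 7.18, adjusted p = 0.0368) and Klk1b22 (6.67, adjusted p = 0.0431), another tubule kallikrein. By an unadjusted p under 0.05, 9 of the 11 were higher and 0 lower. The share of all tested probes at an unadjusted p was not counted, so the 9 and the unadjusted counts below have no background beside them. The median difference was 6.07 over the 11 genes and 5.49 over all 15 on the array, against 0.0016 over all tested probes. The 2 calls rest on which arrays are used: the number called higher was 6 when knockout replicate 1 was left out, 8 when wild-type replicate 2 was, and 0 for each of the other 4 arrays. Genes of this kind passed the filter through the arrays where they were high, so the counts are given as a description.

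Acinar genes of salivary glands had several patterns: of 19 detected, 6 were detected on the knockout arrays and wild-type replicate 2 alone, 6 on all 6 arrays, and 6 on 1 array. Of 22 listed, 20 were on the array, 16, 14 and 13 were detected on knockout replicates 1 to 3, and 6, 14 and 6 on wild-type replicates 1 to 3. Pip, which encodes the secreted prolactin-induced protein, read 14.41, 15.86 and 15.91 on the log2 scale in the knockout and 4.98, 15.86 and 5.08 in wild type. Aqp5, the water channel of acinar cells, read 13.88, 14.35 and 14.68 in the knockout and 5.20, 14.46 and 5.12 in wild type. Pip and Aqp5 on wild-type replicate 2 thus lay within the range of the knockout arrays, and were not above background on the other wild-type arrays.

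Of the acinar genes, 3 were detected on knockout replicate 1 alone. Dnase1, a secreted nuclease of parotid saliva, read 11.51 on the log2 scale there and stayed below background on the other 5. The proline-rich protein genes Prpmp5 and Prh1 read 9.19 and 8.24 on knockout replicate 1 and were below background elsewhere. This is the array on which Amy1 was high. Car6, the carbonic anhydrase of saliva, was instead detected on knockout replicate 2 alone, at 8.92. Lpo, lactoperoxidase, had its highest level on the same array (11.58), against 7.57 and 8.07 on knockout replicates 1 and 3 and 8.18 on wild-type replicate 2.

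Of the 13 acinar genes that passed the filter, limma called 1 higher and 0 lower, beside 10.1% of all tested probes called higher. The counts were 4 and 0 at an unadjusted p under 0.05, a threshold with no share counted over all probes. The called gene was Prb1, a proline-rich protein gene, with 6.43, 5.68 and 6.46 in the knockout and 5.05, 5.57 and 5.07 in wild type. Its log2 difference was 0.96 (SE 0.28, adjusted p = 0.0452). It was detected on 3 of the 6 arrays, knockout replicates 1 and 3 and wild-type replicate 2. In raw intensity the groups overlapped, with 158, 121 and 163 in the knockout and 160, 167 and 149 in wild type. The lower background of the knockout arrays, given for Cela1, applies here too. The second Prb1 probe was above background on knockout replicate 1 only. A dimmer probe of the acinar gene Fxyd2 was also called higher by limma (log2 difference 1.30, SE 0.28, adjusted p = 0.0192). The probe that stood for Fxyd2 in the count was not (2.11, adjusted p = 0.123). The number called higher was 11 without wild-type replicate 2, 1 without knockout replicate 2, and 0 without any of the other 4 arrays. Without wild-type replicate 2, 6 acinar genes passed the filter through the knockout arrays alone, which fixed their direction, so the 11 is a description. The median difference was 2.11 over the 13 genes and 1.70 over the 20 on the array.

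Duct and other epithelial genes were read with the same list procedure. Of 18 on the array, 14, 16 and 15 were detected on knockout replicates 1 to 3, 15 on wild-type replicate 2, and 3 and 4 on wild-type replicates 1 and 3. Ascl3, a transcription factor of salivary duct progenitors, read 6.12, 9.16 and 7.39 in the knockout and 7.72 on wild-type replicate 2, and was not above background on the other wild-type arrays. Limma called 1 of 15 tested higher and 0 lower, beside 10.1% of all tested probes called higher. The counts were 5 and 0 at an unadjusted p under 0.05, a threshold with no share counted over all probes. The called gene was Wnt4, a secreted signalling protein (log2 difference 3.06, SE 0.89, adjusted p = 0.0455). Its dimmer probe was tested by limma and not called (2.28, adjusted p = 0.0756). The number called higher was 2 when knockout replicate 1 was left out, 12 when wild-type replicate 2 was, and 0 for each of the other 4 arrays. Without wild-type replicate 2, 10 of these genes passed the filter through the knockout arrays alone, which fixed their direction, so the 12 is a description. All 16 detected genes were higher on knockout replicate 2 than on knockout replicate 1.

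**Figure D3:**
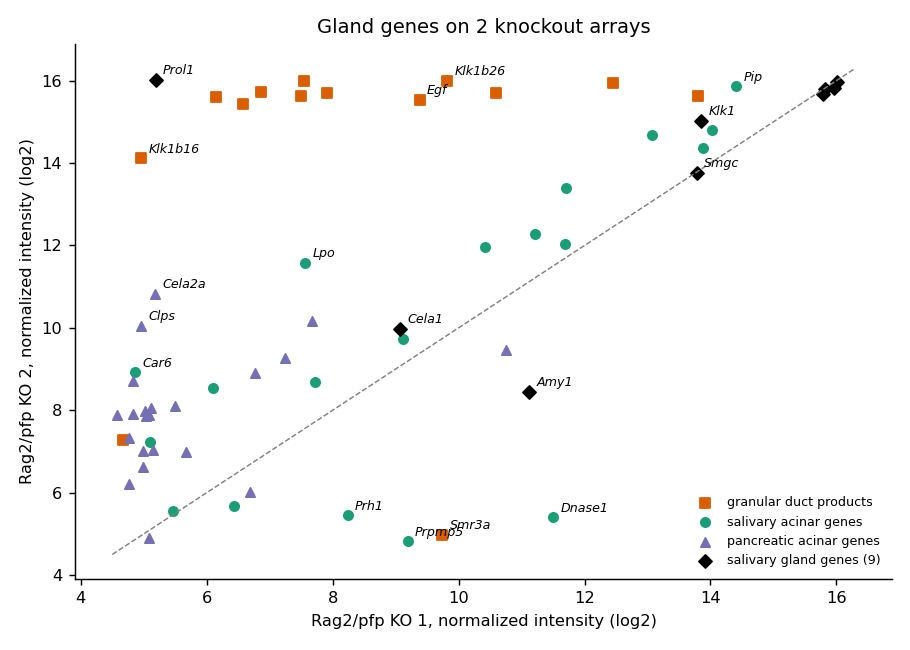
Normalized intensity (log2) of gland genes on knockout replicate 1 (x axis) and knockout replicate 2 (y axis), 1 point per gene detected on at least 1 array, with the line of equal values dashed. Prol1 and most granular duct products lie far above the line, Dnase1, Prpmp5, Prh1, Smr3a and Amy1 below it, the Dcpp genes and Bpifa2 on it at the top right, and pancreatic genes such as Cela2a (10.83 against 5.18) above it on the left.

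Pancreatic genes were set beside Cela1, since elastase 1 is best known from pancreatic juice. Of 25 pancreatic acinar genes on the array, 21 were detected on knockout replicate 2, against 5 and 4 on knockout replicates 1 and 3 and 2, 4 and 3 on wild-type replicates 1, 2 and 3. Of these, 14 were detected on knockout replicate 2 alone, among them the elastase Cela2a at 10.83, the lipase cofactor Clps at 10.05 and the carboxypeptidase Cpa1 at 7.89 on the log2 scale. Knockout replicate 2 was also the highest array for Cela1. Ptf1a, a defining transcription factor of pancreatic acini, was not above background on any array, nor were the trypsinogen gene Prss2 and Cuzd1. What tissue these transcripts came from was not tested.

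The remaining detected genes of the pancreatic list had several patterns, and 2 of them, Gp2 and Pnliprp1, were detected on the knockout arrays and wild-type replicate 2 alone. The zymogen granule protein gene Gp2 read 10.75, 9.47 and 10.82 in the knockout and 4.93, 9.95 and 4.90 in wild type on the log2 scale, the arrays on which the Dcpp genes were bright. Pnliprp1, related to pancreatic lipase, read 7.68, 10.17 and 9.71 in the knockout and 9.78 on wild-type replicate 2. The phospholipase gene Pla2g1b was detected on knockout replicates 2 and 3 and wild-type replicate 2, where it was highest (7.67). The chymotrypsin-like Ctrl was detected on all 6 arrays, and the chymotrypsinogen gene Ctrb1 on knockout replicate 2 and wild-type replicates 1 and 3. In limma 0 of the 5 tested pancreatic genes were called, beside 28.6% of all tested probes. With an unadjusted p under 0.05, 1 was higher and 0 lower, a threshold with no share counted over all probes. Leaving out wild-type replicate 2, 2 were called higher. Gp2 and Pnliprp1 then passed the filter through the knockout arrays alone, which fixed their direction.

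**Figure D4:**
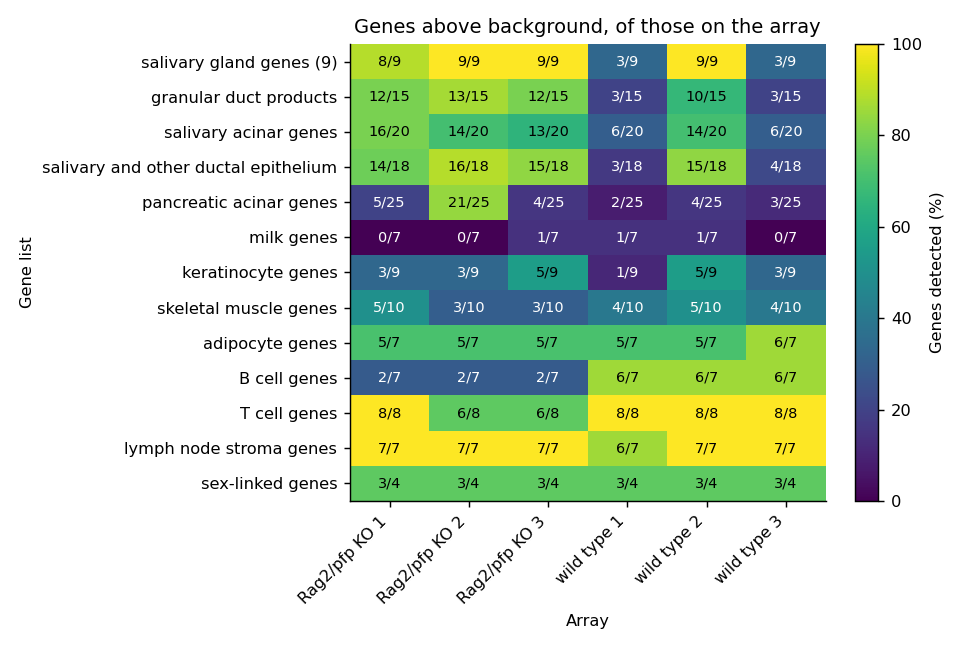
Number of genes above background (detection p-value under 0.05) of those on the array, for each gene list (rows) and array (columns), coloured by the percentage. The gland lists are detected mainly on the knockout arrays and wild-type replicate 2, and in smaller part on wild-type replicates 1 and 3 (acinar genes 6 of 20 on each). The pancreatic list is detected mainly on knockout replicate 2 (21 of 25), and the B cell list mainly on the wild-type arrays (6 of 7 each).

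Markers of other tissues were read on the same arrays, and their part in the values of the members was not tested. Neither of 2 lacrimal gland genes on the array was detected on any array, and of 7 milk genes 5 were detected on no array, Csn2 on wild-type replicates 1 and 2, and Csn3 on knockout replicate 3. For adipocyte genes 5 to 6 of 7 were detected on every array, and for skeletal muscle genes 3 to 5 of 10. Among 9 keratinocyte genes the basal keratin genes Krt5 and Krt14 were detected on the same 4 arrays as the Dcpp genes. Krt14 had 11.22, 12.41 and 12.49 in the knockout and 4.78, 11.97 and 5.41 in wild type on the log2 scale, while Krt1, Krt13 and Dsg3 were not above background on any array. Of the other 4, Krt10 was detected on all 6 arrays, Lor on knockout replicate 3 and wild-type replicates 2 and 3, Krt4 on wild-type replicates 2 and 3, and Sprr1a on knockout replicate 3. Krt14 is also made by basal and myoepithelial cells of glands. Lymphocyte genes on wild-type replicate 2 were mostly below those of the other wild-type arrays, for 7 of 8 T cell genes and 5 of 6 detected B cell genes. Its T cell genes had a median of 11.09 beside 11.65 and 11.34, and its B cell genes 10.63 beside 11.32 and 10.49, with a median difference per detected B cell gene of -0.72 to wild-type replicate 1 and -0.45 to wild-type replicate 3. By limma 8 of 8 tested T cell genes were lower in the knockout, beside 18.5% of all tested probes. The 6 tested B cell genes were called lower as well, but 4 of them passed the filter through the wild-type arrays alone, which fixed their direction. Of 7 stromal genes 2 were lower (Cxcl13 and Glycam1), beside 18.5% of all tested probes. Of 5 adipocyte genes 3 were higher (Cidec, Lipe and Plin1), beside 10.1% of all tested probes. Among 4 muscle genes Tnni2 was higher and Mylpf lower, and among 4 keratinocyte genes 0 were called. In either direction 28.6% of all tested probes were called. With an unadjusted p under 0.05, 2 keratinocyte genes were higher, a threshold with no share counted over all probes. In raw intensity Lipe, Plin1 and Tnni2 overlapped between the groups, while Cidec did not. The knockout arrays had the lower background, and its part in these calls was not tested.

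The genes outside the 9 whose values most resembled the mean of the members, by Pearson correlation over the 6 arrays among genes with a range of at least 3 log2 units, were Prr15l, Col17a1, Scgb2b26, Tlcd4, Cldn3, Fxyd3, Ly6g6e, Prss8, Fbp2, Krt14, Kcnk1 and Hapln4. Their correlations ran from 0.996 to 0.998. The 6 arrays fall into 4 that are high and 2 that are low, so such a value mainly reports that split and is given only to say how the genes were picked. Scgb2b26, a secretoglobin gene, read 13.51, 15.45 and 14.95 in the knockout and 5.44, 14.65 and 5.47 in wild type on the log2 scale. The tight junction gene Cldn3 read 10.87, 12.05 and 12.05 in the knockout and 4.70, 11.71 and 4.77 in wild type. Col17a1, a collagen that anchors basal epithelial cells, read 8.70, 9.14 and 9.03 in the knockout and 6.12, 8.98 and 6.08 in wild type.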

How the data were processed

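Total RNA of 6 lymph node samples was read on bead arrays, 3 of Rag2/pfp knockout and 3 of wild-type mice. The deposited table gives 1 intensity and 1 detection p-value per probe and array, not normalized by the authors. The submitters' processing notes name GenomeStudio 2011.1. The sources used here do not state whether background was subtracted. The authors' deposited log2 values equalled quantile-normalized log2 intensities to within 5e-07. By the platform annotation 23978 probes carry a single gene symbol, 0 several and 1719 none.

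For levels and tests, intensities were corrected by normexp with the background estimated from the detection p-values (offset 16), quantile normalized and log2 transformed with limma 3.58.1 in R 4.3.3. Probes detected (p under 0.05) on at least 3 arrays were kept (14378, with 11319 removed) and tested by lmFit and eBayes, two-sided, with Benjamini-Hochberg adjustment over all of them. Of these 4119 were called (28.6%), 1455 higher and 2664 lower in the knockout. A list gene was represented by its tested probe of highest mean, or, with none tested, by its detected probe of highest mean. The calculation was tested on simulated data. A dim value's bound used the lowest signal detected on that array. Promoter windows were aligned with Biopython 1.88. With 3 arrays a group, their number limits the precision.

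The members and all gene lists were chosen with earlier results of these data known. Named were all members, the targeted and sex-linked genes, up to 5 called genes per list, and the 12 genes most like the members. Other named list genes (such as Egf, Pip, Aqp5, Dnase1, Ascl3, Gp2, Cela2a and Krt14) were chosen after their values were seen. Alternatives were the authors' values, an offset of 50, no detection filter, array medians, every probe counted, a replicate block and leaving out each array.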

Additional observations from a re-analysis of the deposited data

How the results depend on the processing

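Over all probes the number called was 4119, with 3759 to 4199 under the authors' log2 values, an offset of 50, no detection filter or array medians, and 1660 to 5768 when 1 array was left out. The counts of list genes called higher were small and depended on the settings. For granular duct products (2), the count was 1 with the authors' values, 1 with an offset of 50, 0 without the filter, and 0 to 8 with 1 array left out. For salivary acinar genes (1) it was 0 under each of those 3 settings, 2 when every tested probe was counted, and 0 to 11 with 1 array left out. For ductal epithelium (1) it was 0 with the authors' values and 0 with an offset of 50, and 0 to 12 with 1 array left out. For pancreatic genes (0) it was 0 to 2 with 1 array left out. The highest of these counts, and the 5768, came without wild-type replicate 2. List genes detected only on the knockout arrays and that array then passed the filter through the knockout arrays alone, which fixed their direction. The cause of the other changes was not tested. The knockout minus wild-type difference in the median level of the 9 salivary genes, 6.28 on the log2 scale, was 5.10 with the authors' values, 5.67 with an offset of 50, and 4.64 to 9.50 with 1 array left out. Whether replicate numbers pair the arrays was left undecided. Deviations of same-numbered arrays from their group means correlated at 0.489, 0.318 and -0.308, and those of other pairs at -0.527 to 0.422. Deviations within a group of 3 arrays depend on each other, so these values cannot decide it. With the replicate number as a block, 4685 probes were called, and 10 granular duct, 6 acinar, 8 ductal and 0 pancreatic genes were higher. The files do not mark saturated probes, which limits comparison among the bright arrays.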
